A study of Mus musculus with 2 samples.

Results

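The nuclear genes of the respiratory chain were taken as the protein-coding genes whose symbols name a subunit of complex I (Ndufa, Ndufb, Ndufc, Ndufs and Ndufv genes without the Ndufaf assembly factors), complex II (Sdha to Sdhd), complex III (Uqcr genes), complex IV (Cox4 to Cox8 genes) or complex V, the ATP synthase (Atp5 genes). This rule gave 88 of the 41709 genes in the deposited tables. Polyadenylated RNA of whole lung from C57BL/6 mouse embryos at E14.5 was sequenced in 2 libraries, each made from 7 pooled lungs. The first library carries the genotype label control, with no allele named, and the other carries the genotype label Prmt5 knockdown and a title that names both Shh and Prmt5. The labels do not state the alleles, the driver or the cells in which either gene was altered, and the second library is called the knockdown library here.

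The respiratory chain sits in the inner mitochondrial membrane, where complexes I to IV pass electrons from NADH and succinate to oxygen and, apart from complex II, pump protons that complex V uses to make ATP. Most of its subunits are encoded in the nucleus and are made in nearly every cell, at levels that follow how much a tissue relies on oxidative metabolism, so heart, skeletal muscle and brown fat hold much of them. A few subunits of complex IV, cytochrome c oxidase, come in a widely expressed form and a form restricted to heart and skeletal muscle, testis, or lung and vessel wall.

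The libraries held 22581490 (control) and 25829281 (knockdown) counted reads. With 1 library per genotype there was no replicate spread and no test, so each ratio compares these libraries and carries a 95% exact counting interval only. Genes with 50 reads or more in either library count as measured, and a gene is called higher or lower when the ratio of knockdown over control, scaled by the trimmed mean of M values, was at least 1.5-fold either way and the interval excluded 1. Prmt5 had 2704 and 2127 reads (log2 ratio -0.43, -0.51 to -0.35), short of the rule, and Shh 1124 and 109 reads (-3.44, -3.75 to -3.17), lower. Transcripts typical of blood and of other organs, most of them with reads in the control too, were higher in the knockdown library. Where they came from was not tested. All 14 heart muscle markers were higher, from 0.0268% to 0.789% of reads in sum. So were all 12 skeletal muscle markers (0.00388% to 0.111%) and all 10 measured of 11 liver markers (0.00590% to 0.991%). The 12 red blood cell markers (1.01% to 3.59%, median log2 ratio 3.90) were higher too. So were the 8 adrenal cortex markers (0.000452% to 0.0220%), of which 3 had no control read. In contrast, 10 of 12 lung epithelium markers were lower (0.190% to 0.0555%) and none was higher. In whole-organ RNA, a change in the number of cells of a type and a change in RNA per cell cannot be told apart.

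Genes of the respiratory chain were higher in the knockdown library as a block. Of the 88 genes 85 were measured, and 83 of these had a ratio above 1, with a median log2 ratio of 0.62 (quartiles 0.50 and 0.77) beside -0.01 (quartiles -0.33 and 0.44) over all 14569 measured genes. By the rule of size 52 members were higher and 2 lower, and 31 passed neither way, against 20.7% of all measured genes called higher and 12.3% called lower. At any size, with the counting interval excluding 1, 80 of the 85 were higher and 2 lower, against 37.2% and 37.5% of all measured genes. With total counts these numbers were 78 and 3, against 30.6% and 46.1%. Together the 88 genes took 1.07% of control reads (exact binomial interval 1.062% to 1.071%) and 1.51% of knockdown reads (1.507% to 1.517%).

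The number past the rule depended on scaling, because the block lay on the 1.5-fold line at a log2 ratio of 0.58. Within 0.1 of that line stood 36 members, 22 inside and 14 outside. Scaling by total counts lowered every ratio by 0.11 on the log2 scale and left 30 members higher and 2 lower, against 18.3% and 16.7% of all measured genes. DESeq2 size factors gave 54 higher and 2 lower, against 21.5% and 11.3%. The distance of the members' median from the median of all measured genes was 0.63 with each of the 3 scalings. Each scaling shifts all genes by nearly the same amount, so this distance could hardly change and does not test the scaling. The plot of the distribution of ratios shows how narrow the block was beside the genome.

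**Figure D1:**
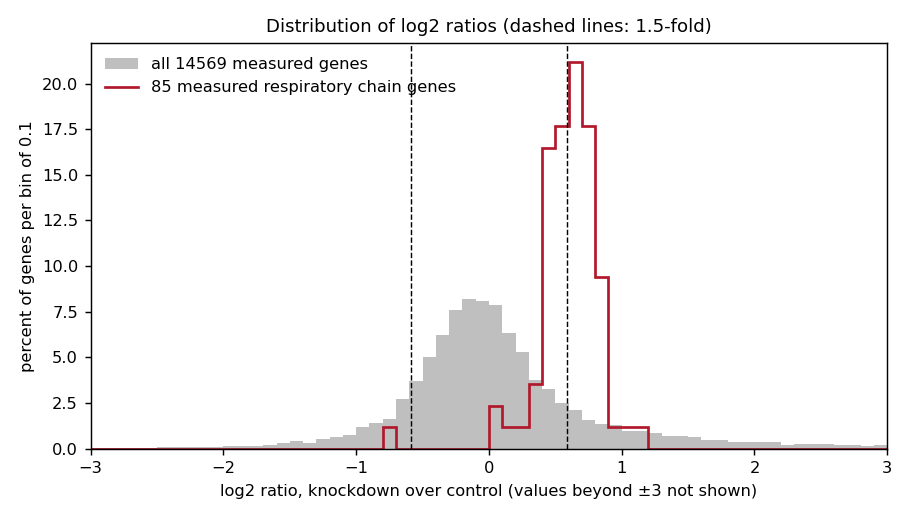
Percent of genes in bins of 0.1 of the log2 ratio of knockdown over control, for all 14569 measured genes (grey) and the 85 measured respiratory chain genes (red line), with dashed lines at 1.5-fold. The members form a narrow peak around their median of 0.62, across the upper dashed line, whereas all measured genes centre on -0.01, and the members beyond 3 on either side are not drawn.

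Short transcripts were higher than long ones in the knockdown library generally, and respiratory chain genes are short, with a median deposited length of 707 bp over the 79 widely expressed measured members. Among other genes with at least 1000 control reads the median log2 ratio was 0.17 up to 1000 bp (328 genes), 0.00 from 1000 to 2000 bp (993 genes) and -0.15 from 2000 to 4000 bp (2103 genes). Widely expressed members in the same classes had medians of 0.65 (48 genes), 0.59 (21 genes) and 0.52 (3 genes). The part of length in the members' ratios was not tested beyond these values. Cytosolic ribosomal protein genes, which are also short and abundant, had a median of 0.18, with 2 of 81 higher (Rpl12 and Rpl7a) and 1 lower (Rps28), which are named after their values were seen, as is Mrps23 in another list.

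The rank order of widely expressed members by FPKM was nearly the same in both libraries, although single members such as Ndufs3 and Atp5g2 shifted against the rest. Over the 79 widely expressed measured members the rank correlation of FPKM (reads scaled to gene length and library total) between the libraries was 0.98, a description across genes that are not replicates. Their FPKM in the control ran from 1.10 to 712 with a median of 127, and in the knockdown library from 1.30 to 1049 with a median of 180. The log2 ratio had rank correlations of 0.07 with control FPKM and -0.27 with length over the same genes. With FPKM spread this widely, a rank correlation between the libraries stays high when single members shift. The most abundant members by FPKM were the liver-type oxidase subunit Cox6a1 for the control library (712, then 946) and the catalytic ATP synthase subunit Atp5b for the knockdown library (707, then 1049).

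**Figure D2:**
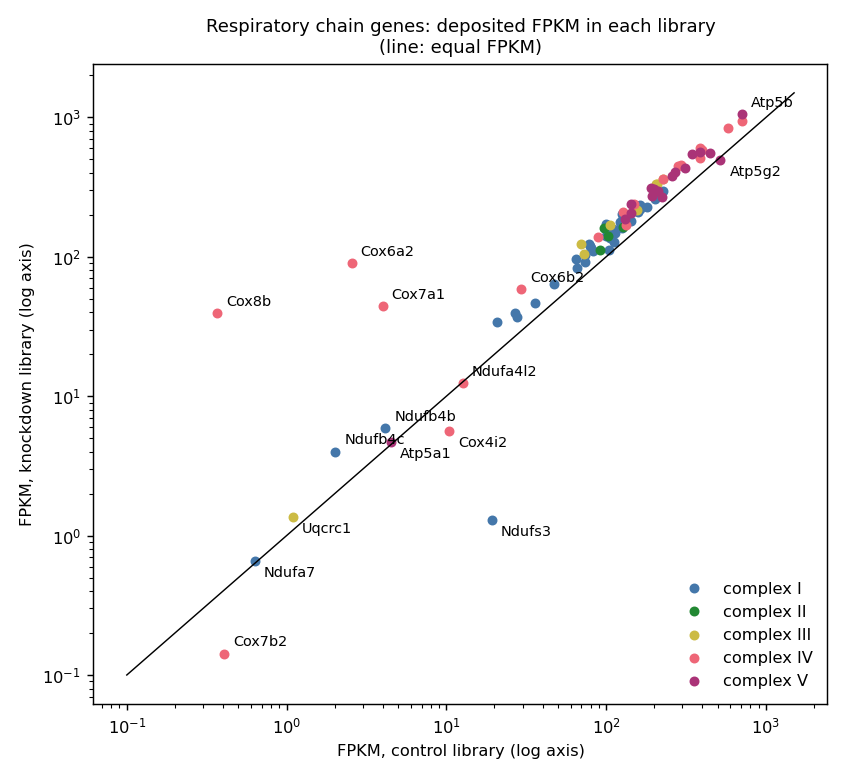
FPKM as deposited in the control library (horizontal, log axis) and the knockdown library (vertical, log axis) for each respiratory chain gene with reads in both, coloured by complex, with a line at equal FPKM. Most members lie in a band just above the line, Cox8b, Cox6a2 and Cox7a1 lie far above it, and Ndufs3, Cox4i2, Cox7b2, Atp5g2 and Ndufa4l2 lie below it, the last pair only slightly.

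Complex I takes electrons from NADH. Of its 38 measured genes 18 were higher, 1 was lower and 19 passed neither way, with a median log2 ratio of 0.55. The shares of all measured genes to set beside the counts of each complex are 20.7% higher and 12.3% lower. Ndufv1, which binds NADH, had 2902 control and 4771 knockdown reads (log2 0.63, 0.57 to 0.70). Its partners Ndufv2 (2639 and 4215; 0.59) and Ndufv3 (1511 and 2565; 0.68) were higher as well. Ndufs1, the largest iron-sulfur subunit, had 1678 and 2852 reads (0.68, 0.59 to 0.77). Among accessory subunits with over 1000 reads Ndufa6 had the highest ratio, with 1264 and 2467 reads (0.88, 0.78 to 0.98), and Ndufa3 the highest control FPKM of the complex (228, and 297 in the knockdown library). The core gene Ndufs8 had the lowest ratio after Ndufs3, with 2218 and 2745 reads (0.22, 0.14 to 0.30). The other accessory genes past the rule were Ndufb1 (533 and 1005 reads; 0.83), Ndufb9 (1847 and 3421; 0.80), Ndufb10 (1431 and 2607; 0.78), Ndufa1 (871 and 1572; 0.77) and, between 0.59 and 0.72, Ndufab1, Ndufb2, Ndufa5, Ndufb4, Ndufb5, Ndufc1 and Ndufs5. Ndufab1 also serves as the acyl carrier protein of mitochondria. The nearly identical copies Ndufb4b (44 and 72 reads) and Ndufb4c (22 and 50 reads; 1.08, 0.35 to 1.89, the highest ratio of the complex) share sequence with Ndufb4 (1246 and 2067 reads), so the division of reads among these genes is uncertain.

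Ndufs3, a core iron-sulfur protein-arm subunit without which complex I is not assembled, went against the block. It had 814 control and 63 knockdown reads, a 13.6-fold lower level (log2 -3.76, -4.17 to -3.40), and its FPKM went from 19.2 to 1.30. Ndufs3 (NCBI gene 68349) lies on the minus strand of chromosome 2, from 90894627 to 90904721 on GRCm38, head to head with Kbtbd4, an adaptor gene of a ubiquitin ligase, which starts at 90904740. With 96 and 7 reads, Kbtbd4 was lower by the same factor of 13.6 (log2 -3.77, -5.21 to -2.76). The next gene beyond Kbtbd4, Ptpmt1, passed neither way with 270 and 319 reads (0.16, -0.08 to 0.40). C1qtnf4, beyond the end of Ndufs3, had 3 reads in each library, too few to compare. Ndufs3 and Kbtbd4 are separated by 18 bases in RefSeq, and GENCODE exons of Ndufs3 overlap those of Kbtbd4 over 4.04% of their length. The stretch between the 2 annotated starts is shown because both genes are transcribed away from it, on the strand of Ndufs3, with the gap in capitals and 6 bases on each side in lower case (RefSeq, GRCm38.p6, chr2:90904716-90904745, minus strand).
Ndufs3-Kbtbd4 gap: gaagaaGAGTCACTGCACATTTCCacttcc
In the control Ndufs3 already stood at 19.2% of the median FPKM of widely expressed complex I genes. What the Ndufs3 row counts is uncertain, as described with Atp5a1. Kbtbd4 was named after its value was seen, and reads that HTSeq could not assign between the overlapping ends are not known for either library.

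Complex II oxidises succinate and is also an enzyme of the citric acid cycle. All 4 genes had ratios above 1 and 1 was past the rule, a share near the 20.7% of all measured genes called higher. Ratios above 1 were found for 7198 of all 14569 measured genes. The membrane anchor Sdhd had 2822 and 5350 reads (log2 0.84, 0.77 to 0.90), and the other anchor Sdhc 2646 and 4133 (0.56, 0.49 to 0.63). The iron-sulfur subunit Sdhb, the member with the highest control FPKM (127), had 3043 and 4505 reads (0.48, 0.42 to 0.55), and the flavoprotein Sdha 5920 and 8243 (0.39, 0.35 to 0.44). The intervals of Sdha and Sdhd do not overlap, so these subunits of 1 enzyme differed by more than counting error.

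Complex III, which passes electrons to cytochrome c, had the highest median of the 5 complexes (0.79), with 7 of 8 genes higher and none lower. The Rieske iron-sulfur protein Uqcrfs1 led with 2068 and 4167 reads (log2 0.93, 0.85 to 1.003). The hinge protein Uqcrh, highest in control FPKM (227, and 364 in the knockdown library), had 2799 and 5140 reads (0.79, 0.73 to 0.86), and the small subunits Uqcr10 (0.83), Uqcr11 (0.80), Uqcrq (0.78) and Uqcrb (0.59) were higher too. The core protein Uqcrc2 had 3088 and 5068 (0.63, 0.57 to 0.70). The other core protein, Uqcrc1, had only 82 and 116 reads (0.41, -0.004 to 0.84) and the lowest ratio, and what its row counts is uncertain, as described with Atp5a1. Cytochrome c, encoded by Cycs and not a member, was higher with 3018 and 6225 reads (0.96, 0.90 to 1.02), and cytochrome c1, Cyc1, had 4935 and 7426 (0.51, 0.45 to 0.56).

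Complex IV reduces oxygen to water, and Ndufa4 and Ndufa4l2 are placed with it here because the Ndufa4 protein is a subunit of the oxidase. Of the 12 widely expressed genes 9 were higher and none lower, with log2 ratios from 0.45 (Cox7a2l) to 0.83 (Cox7b) and a median of 0.75. Cox4i1, a regulatory subunit, had 9252 and 15334 reads (0.64, 0.61 to 0.68). The matrix-side subunits Cox5a (1388 and 2484 reads; 0.76) and Cox5b (2934 and 5326; 0.78) were higher too, as were the small membrane subunits Cox6c (3194 and 5829; 0.78) and Cox7c (3898 and 6958; 0.75). Cox6a1 (8574 and 13018 reads; 0.52, 0.48 to 0.56) was short of the rule although it has the highest control FPKM of all members.

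**Figure D3:**
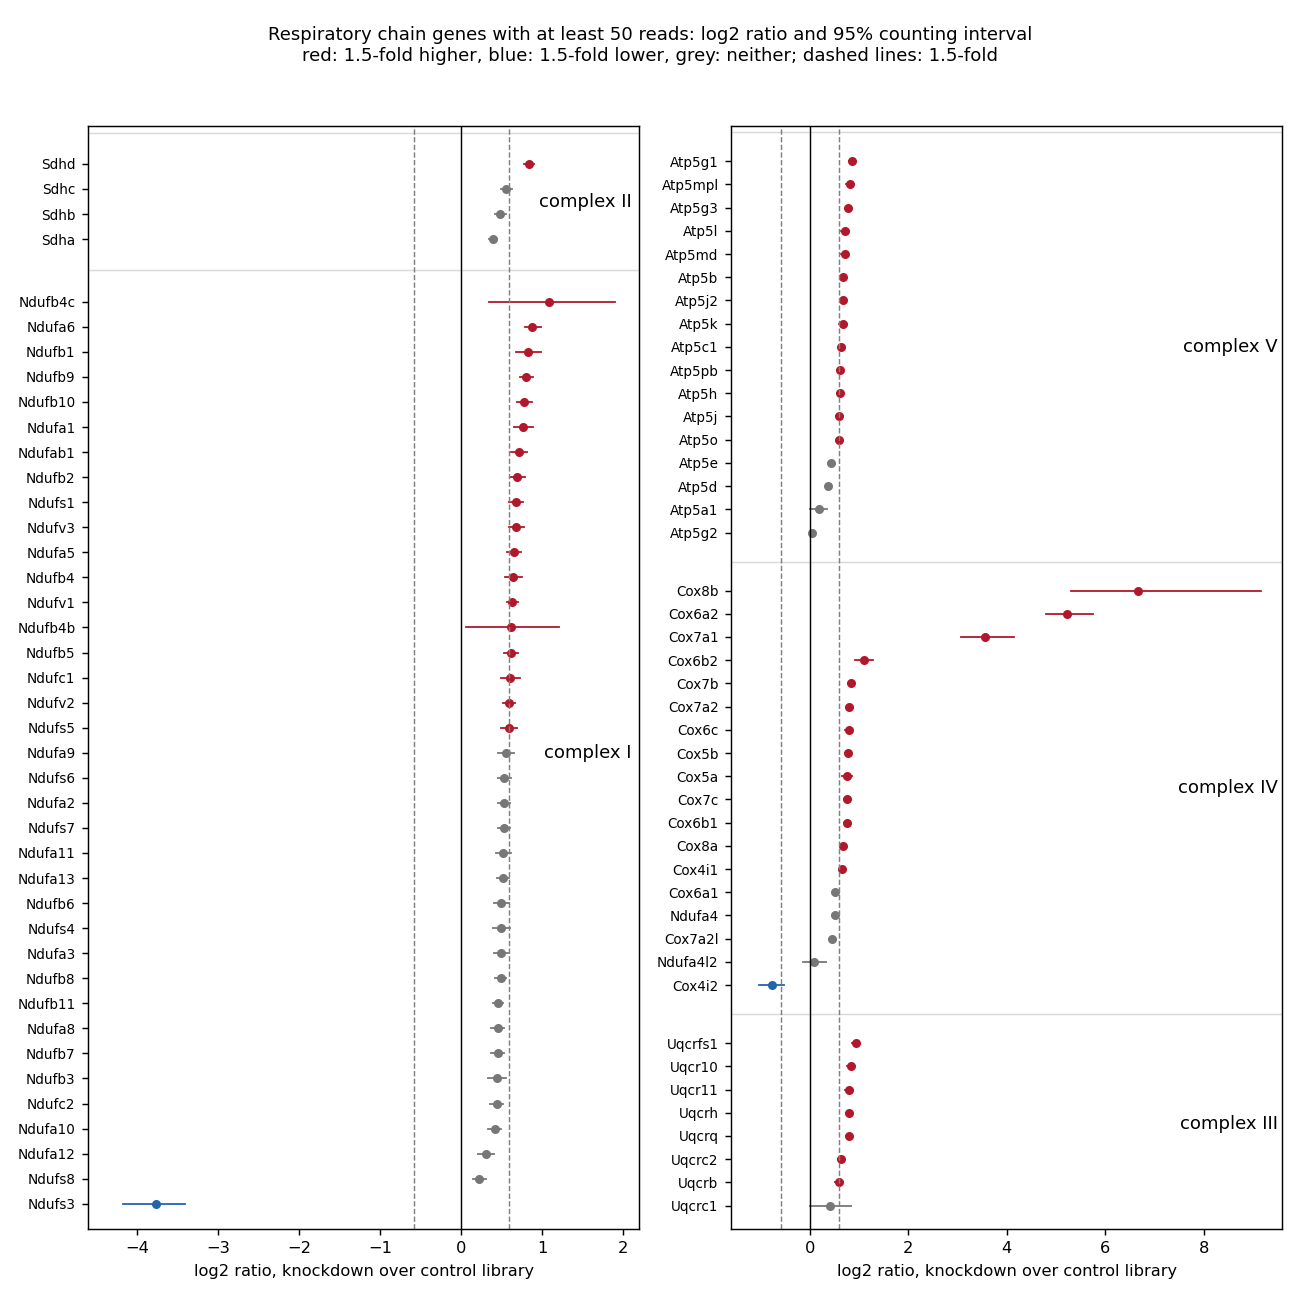
Log2 ratio of knockdown over control (points) with 95% counting interval (lines) for the measured respiratory chain genes, apart from 1 complex I gene, by complex, in red when called higher, in blue when called lower and in grey otherwise, with dashed lines at 1.5-fold. The horizontal scales of the panels differ. Ndufs3 and Cox4i2 are the only measured members below 0, and the muscle isoforms Cox8b, Cox6a2 and Cox7a1 are far above the rest.

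The heart and skeletal muscle isoforms of complex IV had the highest ratios of all members. Ndufs3, in the other direction, differed by more than Cox7a1 and by less than the other 2. Cox6a2 (NCBI gene 12862, chromosome 7, 128205435 to 128206366, minus strand) had 38 control reads and 1533 knockdown reads, 37.6-fold higher (log2 5.23, 4.79 to 5.75), and its GENCODE exons overlap Itgad over 10.3% of their length. Cox7a1 (NCBI gene 12865, chromosome 7, 30184171 to 30186030, plus strand) had 33 and 420 reads and was 11.8-fold higher (3.57, 3.07 to 4.14). Cox8b (NCBI gene 12869, chromosome 7, 140898942 to 140900446, minus strand) had 3 and 372 reads (6.66, 5.31 to 9.15). All 3 were low in the control library and reached levels of 39.7 to 90.1 FPKM in the knockdown library.

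The share of each muscle isoform within its pair went up accordingly. Cox6a2 made up 0.357% of the FPKM of Cox6a1 and Cox6a2 together in control lung and 8.70% in the knockdown library. Cox7a1 went from 2.62% to 15.6% of the pair with Cox7a2, and Cox8b from 0.0925% to 6.41% of the pair with Cox8a. By reads, the exact binomial intervals of these shares were 0.312% to 0.605% and 10.04% to 11.05% for Cox6a2, 0.889% to 1.80% and 7.52% to 9.05% for Cox7a1, and 0.0127% to 0.180% and 3.94% to 4.82% for Cox8b. The widely expressed partners remained the main form in both libraries and were themselves higher or near the line, with Cox7a2 at 2528 and 4665 reads (log2 0.80) and Cox8a at 4864 and 8160 (0.66). Of the gain in FPKM of each pair, the muscle form made 27.3% for Cox6a2, 30.8% for Cox7a1 and 17.6% for Cox8b, so most of the gain was in the widely expressed form.

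Muscle genes at large were higher in the same library as the muscle isoforms, and so were liver, adrenal cortex and red blood cell markers. The 14 heart markers had a median log2 ratio of 5.95 and the 12 skeletal muscle markers one of 5.27. Of 8 muscle energy genes all were higher (median 4.09), among them the oxygen carrier Mb with 26 and 3126 reads (6.80), the creatine kinase Ckm with 34 and 2270 (5.96), and the glycolytic enzyme Pgam2 with 154 and 3222 (4.30). Ckm is counted among the skeletal muscle markers as well. Placing the 2 genes of these lists without control reads, Nppb and Ckmt2, at a floor of 3 control reads gave the same medians. Which part of the members' ratios went with these muscle transcripts was not tested.

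**Figure D4:**
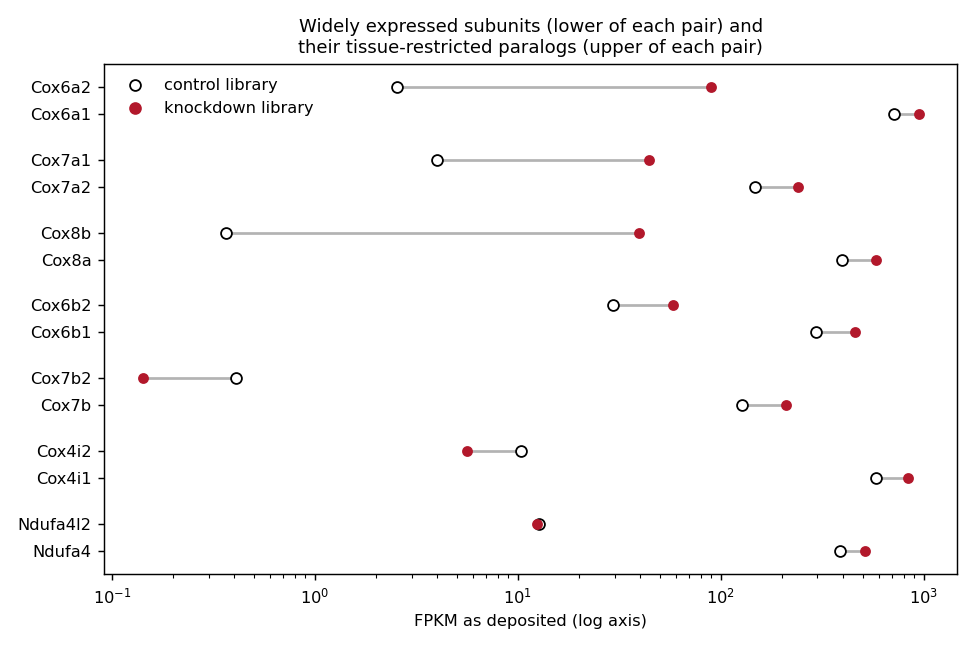
FPKM as deposited (log axis) in the control library (open circles) and the knockdown library (red circles) for each widely expressed subunit and its tissue-restricted paralog. The 3 muscle isoforms at the top moved from at most 3.99 to at least 39.7 FPKM, their partners moved little on this axis, Cox4i2 moved down, and Ndufa4l2 stayed near 12.5. Cox8c, which had no read, is not drawn.

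The start regions of Cox8b and Cox8a are shown because this pair had the largest difference between its members. Each runs from 100 bases before to 25 after the RefSeq start (GRCm38.p6), with capitals marking the letters TATAAA (the letters of a TATA box), the letters CAGCTG (an E-box of the kind bound by muscle regulators, searched after the sequences were seen) and CCGGAAG (the core bound by ETS factors such as GABP) on either strand. Cox8b lies at chr7:140900422-140900546 and Cox8a at chr19:7217592-7217716, both on the minus strand.
Cox8b: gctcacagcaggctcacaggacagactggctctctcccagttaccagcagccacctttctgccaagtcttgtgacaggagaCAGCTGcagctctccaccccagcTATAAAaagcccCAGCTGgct
Cox8a: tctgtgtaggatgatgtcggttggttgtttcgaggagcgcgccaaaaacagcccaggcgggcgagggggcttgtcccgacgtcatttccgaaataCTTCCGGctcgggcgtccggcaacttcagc
The Cox8b stretch held TATAAA from 5 to 10 bases after the annotated start, CAGCTG at 2 places, 19 to 14 bases before and 17 to 22 bases after that start, and no CCGGAAG, whereas the Cox8a stretch held CCGGAAG, read on the other strand, across its start. A match of letters is a description and not a binding site.

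Among the 71 members with a promoter window of 300 bases in RefSeq, the ETS core CCGGAAG occurred in 17 (23.9%), against 9.93% of the 27025 genes with a window. The core CGCATGCG of NRF1, a factor known for respiratory chain genes, occurred in 9 (12.7% against 2.07%), and the letters AAGATGGCG of YY1 in 7 (9.86% against 1.64%). The estrogen-related receptor letters TCAAGGTCA occurred in 2 members (2.82% against 0.466%), the MEF2 pattern (CTA and TAG with 4 bases between) in 1 member, Cox5b (1.41% against 4.23%), TATAAA in 8 (11.3% against 15.7%) and CAGCTG in 6 (8.45% against 18.3%). Both strands were searched, and windows of several starts of a gene were joined. Cox6a2, Cox4i1 and Cox4i2 had no window and were not searched. The 27025 genes were taken whether or not they were measured, so their promoters are not matched to those of the members. The 5 members Atp5j, Atp5k, Atp5l, Cox6a1 and Uqcr11 held both the ETS and the NRF1 core, and Sdhd held the ETS core and the estrogen-related receptor letters.

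The other tissue-restricted isoforms differed by less than the muscle forms. Cox4i2, an oxygen-sensitive isoform known from lung and pericytes (NCBI gene 84682, chromosome 2, 152753916 to 152765039), was 1.70-fold lower with 338 and 210 reads (log2 -0.77, -1.03 to -0.52), and its share of the FPKM of the Cox4 pair went from 1.76% to 0.668%. The deposited length of Cox4i2 was 1.83 times its GENCODE exons. Ndufa4l2, known from pericytes and hypoxia, had 275 and 310 reads (0.09, -0.15 to 0.33; -0.02 with total counts), while its partner Ndufa4 had 4313 and 6521 (0.51, 0.46 to 0.57). Of 7 measured pericyte markers 3 were higher and 2 lower, against 20.7% and 12.3% of all measured genes. The receptors Notch3 (7025 and 3137 reads) and Pdgfrb (-0.80) were lower. Vtn (7.20), which liver also makes in quantity, Abcc9 (1.23) and Rgs5 (0.70) were higher.

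Among testis isoforms, Cox6b2 was the only one with over 5 reads in a library. It had 351 and 799 reads (log2 1.10, 0.92 to 1.29), 9.08% and 11.3% of the FPKM of its pair with Cox6b1, which had 3349 and 5977 reads (0.75, 0.69 to 0.81). Cox7b2 had 5 and 2 reads, beside 2879 and 5419 of Cox7b, and Cox8c had none in either library. The exact binomial interval allows Cox8c up to 0.0758% (control) and 0.0452% (knockdown) of the reads of its pair with Cox8a, for counting error only. None of the 9 germ cell and testis markers reached 50 reads.

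Complex V makes ATP from the proton gradient. Of its 17 genes 13 were higher, none was lower and 4 passed neither way, with a median log2 ratio of 0.63. Atp5b, the catalytic beta chain, had 29999 and 50930 reads (0.68, 0.66 to 0.70), the most reads of any member. The central stalk gene Atp5c1 had 4443 and 7312 reads (0.63, 0.58 to 0.69), whereas its neighbours in the stalk Atp5d (5685 and 7805; 0.37) and Atp5e (4178 and 5933; 0.42) were short of the rule. The small membrane subunit Atp5mpl had 2066 and 3858 reads (0.82, 0.74 to 0.89), and Atp5l (0.71), Atp5md (0.70), Atp5k (0.67) and Atp5j2 (0.67), small membrane subunits as well, were also higher. So were the genes of the outer stalk that holds the catalytic head, Atp5pb (5128 and 8279 reads; 0.61), Atp5h (0.60), Atp5j (0.60) and Atp5o (0.59).

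The 3 genes for the membrane ring subunit c encode the same mature protein with different import sequences, and they differed. Atp5g1 had 2575 and 4969 reads (log2 0.86, 0.80 to 0.93), the highest ratio of the complex, and Atp5g3 had 5490 and 9958 (0.77, 0.73 to 0.82). Atp5g2 had 7577 and 8251 reads (0.04, -0.01 to 0.08; -0.07 with total counts), the lowest ratio of the complex, and its interval lay apart from those of both paralogs. Of the FPKM of the 3 genes, Atp5g2 made up 51.5% in control lung and 38.5% in the knockdown library, Atp5g3 34.4% and 42.8%, and Atp5g1 14.1% and 18.7%. The leading source of subunit c transcripts by FPKM was thus Atp5g2 in the control library and Atp5g3 in the knockdown library.

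Some members had FPKM far under that of partner subunits, and since annotation and counting mode are unknown, their values may not represent the expression of the gene. Atp5a1, the alpha chain that alternates with the beta chain in equal number, stood at 4.49 and 4.71 FPKM, and the deposited FPKM of the beta chain Atp5b was 158-fold that value in the control and 223-fold in the knockdown library. Its exons overlap those of Haus1 (17 and 20 reads) over 4.11% of their length. Uqcrc1 stood at 1.10 and 1.36 FPKM, 66.3-fold and 76.9-fold under its partner core protein Uqcrc2. The complex I gene Ndufa7 had 35 and 42 reads (0.630 and 0.661 FPKM) and was not measured. The deposited lengths of these 3 genes, 4864, 3312 and 2460 bp, were 1.55, 0.80 and 1.35 times their GENCODE exons. With Ndufb4b and Ndufb4c they were the 5 widely expressed members under 10% of the median control FPKM of their complex. Without the 4 of them that were measured, 50 of 81 members were higher and 2 lower. Ndufs3, above that cut in the control, stood at 1.30 FPKM in the knockdown library. The median of widely expressed measured complex I genes there was 139, so the Ndufs3 row is open to the same doubt.

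Other mitochondrial gene lists were set beside the chain. Assembly factors, which build the complexes but are not part of them, mostly passed neither way: 1 of 15 was higher for complex I (median 0.29), 0 of 13 for complexes II, III and V (0.17) and 1 of 16 for complex IV (0.23), and none was lower. The exceptions were the copper chaperone Cox17 with 555 and 1522 reads (log2 1.37, 1.23 to 1.51) and Ndufaf3 with 284 and 484 (0.68, 0.47 to 0.90). Of 78 mitochondrial ribosomal protein genes 6 were higher and 1 lower (median 0.25), with Mrpl40 at 11 and 256 reads (4.40) and Mrps23 the lower one (-0.82). Mrpl40 stood at only 0.231 and 4.70 FPKM, and what its row counts is uncertain, as described with Atp5a1. Of all measured genes 20.7% were called higher and 12.3% lower, larger shares than in any of these lists. Subunit genes thus had a higher median than the genes that assemble or translate for the chain, a difference described here and not tested. Subunits encoded in mitochondrial DNA were not analysed here.

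Fuel-oxidising enzymes had medians nearer that of the subunits. Of 13 citric acid cycle enzymes 3 were higher and none lower (median 0.52), a share near the 20.7% of all measured genes called higher, among them Idh3a at 1338 and 3077 reads (log2 1.12) and Ogdh at 3432 and 5597 (0.62). Of 13 measured fatty acid oxidation genes 8 were higher and none lower (median 0.69), with the medium-chain and long-chain dehydrogenases Acadm (754 and 2481; 1.63) and Acadl (1514 and 3626; 1.18) ahead. Fatty acid oxidation is prominent in heart and liver, whose markers were higher in the same library, and the part of these organs in the ratios was not tested.

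Of 14 regulators of mitochondrial biogenesis 6 were higher and none lower (median 0.40), against 20.7% and 12.3% of all measured genes. The coactivator Ppargc1a had 83 and 481 reads (log2 2.44, 2.11 to 2.80), and the estrogen-related receptors that it works with were higher as well, with Esrra at 652 and 1452 reads (1.07), Esrrg at 33 and 222 (2.65) and Esrrb at 10 and 83 (2.91). The lipid-sensing receptor Ppara had 82 and 272 reads (1.64). Ppargc1a, Esrrg, Esrrb and Ppara all stood at 2.92 FPKM or less in both libraries. The part of heart, muscle and liver transcripts in these ratios was not tested. The broadly expressed factors Nrf1 (1492 and 1420; -0.16), Gabpa (1523 and 1586; -0.03) and Tfam (1319 and 1496; 0.10) passed neither way. Gabpb1 (1094 and 950; -0.29) and Yy1 (2464 and 2230; -0.23) also passed neither way. Within the coactivator family of Ppargc1a, Ppargc1b was higher (186 and 331; 0.75, 0.48 to 1.01), whereas Pprc1, with the most reads of that family, had 2304 and 1810 (-0.43, -0.52 to -0.34).

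**Figure D5:**
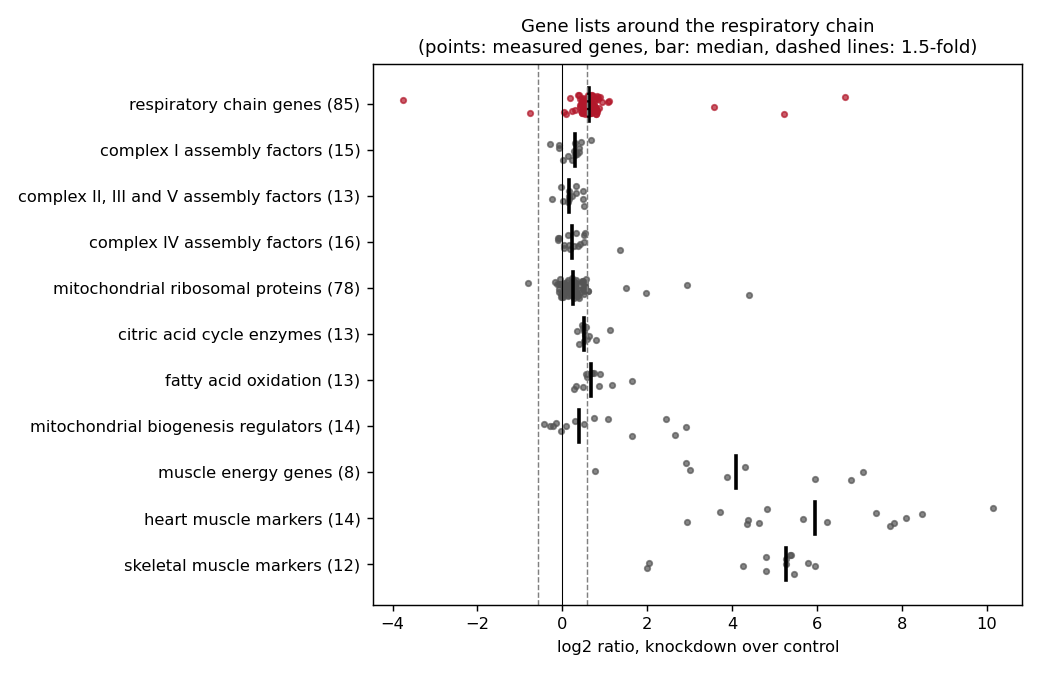
Log2 ratio of knockdown over control for each measured gene (points) and the median (black bar) of the respiratory chain genes (red) and 10 lists around them, with the number of genes in brackets and dashed lines at 1.5-fold. Respiratory chain, citric acid cycle and fatty acid oxidation genes centre between 0.52 and 0.69, assembly factors and mitochondrial ribosomal proteins between 0.17 and 0.29, and muscle lists above 4, where points of Nppb and Ckmt2 depend on the prior count because the control had no read.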

How the data were processed

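Polyadenylated RNA of 2 libraries (1 control, 1 labelled Prmt5 knockdown) was taken up in TRIZOL and made into NEBNext Ultra libraries, per the labels' protocols. Tools in the submitters' processing notes were HTSeq 0.6.1, TopHat2 2.0.12 and Bowtie2 2.2.3, with build mm10. Not given in the sources used here were annotation, strand setting and the handling of multiply mapped reads, so reads of near-identical copies, pseudogenes (10 members have one named after them) and overlapping genes are uncertain. The authors deposited raw read counts per gene and FPKM values, and each FPKM was the count over a whole-number gene length and the library total (all 22831 genes with reads in both libraries, within 0.001 bp).

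NCBI gene numbers were matched to RefSeq symbols of GRCm38.p6 (40269 of 41709), and exon unions came from GENCODE. Counts were scaled with TMM factors of 1.04 and 0.963 (edgeR 4.0.16, R 4.3.3), with a prior count of 0.5 and Clopper-Pearson intervals at 95%. Intervals and the floor of 3 reads cover counting error only, and PCR copies are not independent molecules. The script was tested on simulated counts. Members, isoform pairs and lists were chosen with earlier results of these data known. Named were isoform pairs, the highest, lowest and most abundant member of each complex, core subunits, the subunit c genes, every member past the rule of size, and up to 4 leading genes per list. A few of these genes are not reported here but remain in the counts. Alternatives covered scaling (DESeq2 1.42.0 and totals), prior count, FPKM, read minimum, ratio, interval and member choice.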

Additional observations from a re-analysis of the deposited data

How the results depend on the processing

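With 1 library per group no replicate could be left out. No paired analysis was possible because each group holds 1 library. No value past the rule of size changed sign under the settings tried. Atp5g2 and Ndufa4l2, which did not pass it, were at -0.07 and -0.02 with total counts. The 52 members called higher fell to 30 under scaling by totals, to 30 and 29 on log2(FPKM + pseudocount) at 0.1 and 1, and to 5 at a ratio of 2, where 1 was lower. Deposited FPKM is itself scaled by the library total. The FPKM settings therefore repeat scaling by totals apart from the pseudocount and are not separate checks. Without the restricted isoforms 1 was lower. The median of all members was 0.51 with total counts, 0.51 and 0.50 with FPKM at 0.1 and 1, and 0.71 as a mean. For complexes I to V in order, medians were 0.44, 0.41, 0.68, 0.64 and 0.52 with total counts, 0.44, 0.41, 0.68, 0.64 and 0.52 with FPKM at 0.1, and 0.43, 0.41, 0.67, 0.64 and 0.52 with FPKM at 1. Totals without red blood cell genes gave 0.45, 0.72, 0.68 and 0.56 for complexes II to V, and the mean gave 0.72 for complex III and 1.34 for complex IV. With total counts, list medians were 0.41 for citric acid cycle enzymes and 0.62 for cytochromes c and c1. The 7 measured smooth muscle markers, not described above, had a median of -0.50 with total counts and -0.39 with TMM. By the rule of size 1 of them was higher and 3 were lower, against 20.7% and 12.3% of all measured genes. By raw reads, which ignore length, pair shares (control, knockdown) were 3.52% and 1.35% for Cox4i2, 1.29% and 8.26% for Cox7a1 and 5.99% and 4.54% for Ndufa4l2, and in the knockdown library 10.5% for Cox6a2 and 4.36% for Cox8b. Read minima of 10, 200 and none, a prior count of 2, DESeq2 size factors, a 99% interval and a lower ratio kept the number called higher within 1.5 times.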
